A study of Mus musculus with 10 samples.

Results

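Oxidative phosphorylation genes encode the 5 protein complexes of the inner mitochondrial membrane that turn the oxidation of nutrients into ATP, and their transcripts were followed in the lungs of mice with increased pulmonary flow (IPF) and of sham-operated mice. The members were the protein-coding genes of the deposited P30 expression table whose symbol begins with mt-, Nduf, Uqcr, Cox4 to Cox8 or Atp5, or is Sdha, Sdhb, Sdhc or Sdhd; Cox8b was left out. This rule found 106 of 54532 rows. They carried 105 symbols, since Atp5o occurred in 2 rows. Of these members, 13 lie on the mitochondrial genome and 93 on nuclear chromosomes. The nuclear members comprised 36 of complex I, 8 assembly factors of complex I, 4 of complex II, 8 of complex III, 19 of complex IV and 18 of complex V. Despite their prefix, Ndufa4 and its relative Ndufa4l2 were counted with complex IV, as was Cox7a2l. A mean of at least 0.1 FPKM over the 10 samples (fragments per kilobase of gene and per depth of the library, so a level per gene length) was reached by 103 members. The remaining 3 were Cox7b2, with at most 2 recovered reads in any sample, Cox8c, with at most 1, and the second Atp5o row, listed at 0 in every sample.

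The samples were whole lungs of WT C57BL/6J mice. In the IPF group (n = 5), the abdominal aorta had been punctured through into the inferior vena cava on postnatal day 7, which leaves a fistula between both vessels. The sham group (n = 5) had the same laparotomy without the puncture. Lungs of both groups were collected on postnatal day 30, and the labels do not say whether each sample came from a mouse of its own, so p-values measure the spread between these samples. The comparison asks whether a lung that carries an excess of blood flow through its maturation differs in the transcripts of its respiratory chain.

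Complex I takes electrons from NADH and complex II takes them from succinate. Both hand them through coenzyme Q to complex III and, by cytochrome c, to complex IV, where oxygen is reduced, and the proton gradient built on the way drives complex V, the ATP synthase. Complex II is encoded by nuclear genes alone, whereas complexes I, III, IV and V combine nuclear subunits with a core of subunits that the mitochondrial genome encodes.

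The libraries held 15483046 to 19026843 reads, recovered from FPKM and gene length. Alveolar type 2 markers, which check the tissue label, summed to 12346 FPKM in sham replicate 1 and to 16406 to 19788 FPKM in the other samples. Xist was at 26.8 to 43.2 FPKM in the IPF samples and at most 0.0767 FPKM in the sham samples, while Ddx3y was at 0 in the IPF samples and at 14.3 to 21.4 FPKM in the sham samples, so sex and surgery cannot be told apart. All 7 circadian clock genes examined also passed the test between the groups (Nr1d1, a clock repressor, was at 1.03 to 4.28 FPKM against 31.0 to 42.6 FPKM), and all 4 B cell markers were higher in IPF. Ptprc, a leukocyte marker, passed as well (5.93 to 6.60 FPKM in IPF, 4.10 to 5.10 FPKM in sham), and 4 endothelial markers, of which 1 passed, summed to 921 to 1034 FPKM in IPF and 799 to 852 FPKM in sham. Sham replicate 1 stood apart from the other libraries in the nuclear members, and values without it are given beside many of the estimates that it moved. The part of these differences in the results was not tested. In bulk lung RNA, fewer cells of a type and less RNA per cell cannot be told apart.

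Of the 103 members tested, 1 passed limma's moderated test at an adjusted p under 0.05, against a background of 5.85% of the 20448 genes tested. It was Ndufv3, and it was higher in IPF, as were 3.71% of all genes at this threshold. None passed the study's limits, which add an absolute log2 fold change above 1 and were met by 1.14% of all genes. At an unadjusted p under 0.05, 5 members were called, against 19.5% of all genes. Ndufv3 was also the only member whose groups did not overlap, against 7.29% of all genes, or 4.52% with IPF the higher group. The intervals show how closely these levels were bounded: the 95% confidence interval of the log2 fold change lay within ±0.5 for 73 of 103 members and within ±1 for 101, whereas the narrower bound held for 46.6% of all genes.

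The estimates nevertheless leaned to one side. Among the 103 members, 86 had a log2 fold change above 0 and 17 below, with a median of 0.11 on the scale of log2(FPKM + 0.1), beside a median of 0.002 over all genes tested, of which 50.4% were above 0. The lean lay in the nuclear members, at 79 above and 11 below with a median of 0.11, and not in the mitochondrial members, at 7 above and 6 below with a median of 0.03, or 0.02 over the 12 without mt-Atp8, whose counts are too low to use. It rested on sham replicate 1. Without that sample the nuclear median was -0.01, with 41 members above 0 and 49 below, and the mitochondrial median was 0.10, with 9 above and 4 below.

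**Figure D1:**
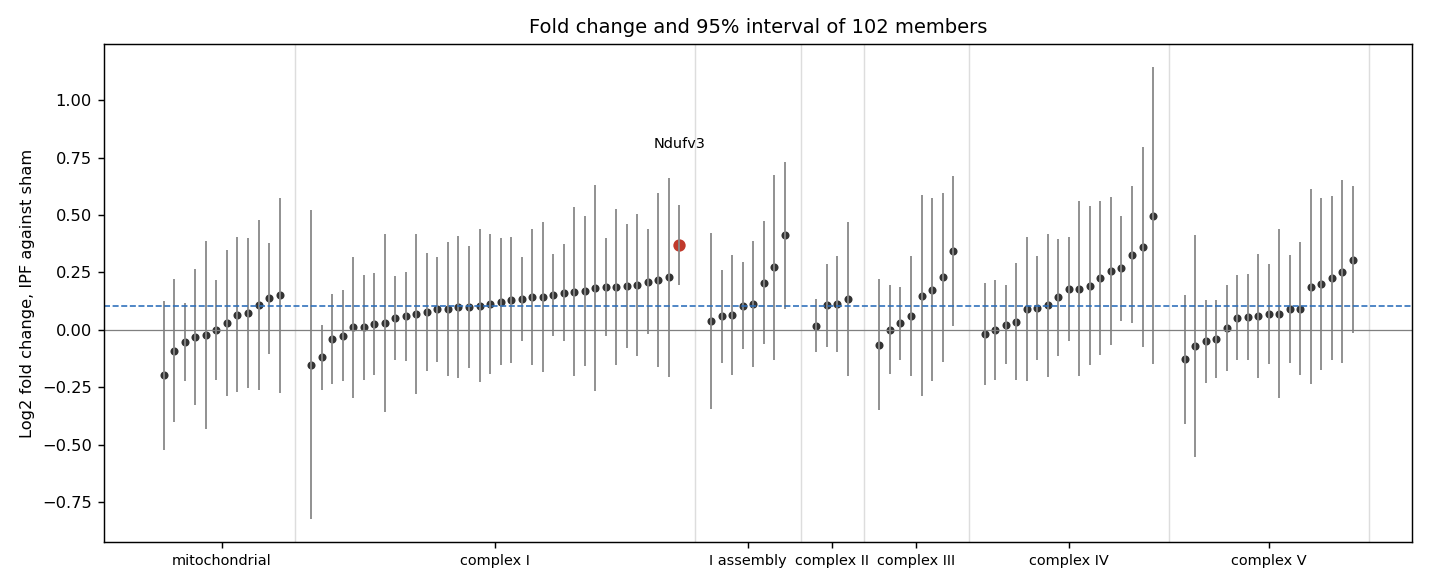
Log2 fold change of IPF against sham (y axis, log2(FPKM + 0.1)) with its 95% confidence interval for 102 members, sorted within each complex along the x axis; mt-Atp8 is left out because its sham samples hold at most 3 reads. The dashed line is the median of the members shown, 0.10, and Ndufv3 in red is the member that passed the test.

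In complex I, the member that passed was Ndufv3, which encodes an accessory subunit of the module that binds NADH. The gene (ENSMUSG00000024038) lies on chromosome 17, plus strand, from 31520115 to 31531326 in GRCm38. Its level was 15.8, 16.4, 16.8, 14.8 and 15.7 FPKM in IPF replicates 1 to 5 and 9.99, 13.2, 12.8, 12.9 and 12.7 FPKM in sham replicates 1 to 5. Every IPF sample thus lay above every sham sample, with the nearest pair at 14.8 and 13.2 FPKM. The means were 15.9 ± 0.762 FPKM (SD, n = 5) in IPF and 12.3 ± 1.31 FPKM (SD, n = 5) in sham. On the log2 scale the difference was 0.37 with a standard error of 0.08 and a 95% interval from 0.20 to 0.54 (adjusted p = 0.0191, limma). Without sham replicate 1, the lowest sample, the log2 fold change was 0.30 (adjusted p = 0.00991, limma). Without IPF replicate 2 it was 0.36 and no longer passed (adjusted p = 0.0523).

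The other 35 nuclear complex I subunits did not pass. Their log2 fold changes ran from -0.15 to 0.23, or from -0.15 to 0.14 without sham replicate 1, and the median over all 36 was 0.12, or -0.01 without that sample. Ndufc2, which encodes a small membrane-arm subunit, had the highest mean level at 75.5 ± 7.56 FPKM in IPF and 73.5 ± 16.3 FPKM in sham, and the sham spread came from sham replicate 1 at 45.1 FPKM, below the 76.3 to 86.3 FPKM of the other sham samples. Its log2 fold change was 0.07, or -0.10 without that sample. Ndufs1, the largest subunit and a carrier of iron-sulfur clusters, went the other way. It was at 6.01 to 7.36 FPKM in IPF and 7.06 to 7.80 FPKM in sham, a log2 fold change of -0.12 (adjusted p = 0.347, limma). Sham replicate 1, at 7.06 FPKM, was the lowest sham sample but lay within the IPF range. Eef1b2 overlaps Ndufs1 on the opposite strand at a mean of 68.1 FPKM, above the level of Ndufs1 itself, and the use of strand in counting was not stated.

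The 8 assembly factors, named Ndufaf1 to Ndufaf8, help to build complex I and are not part of the finished complex. All 8 estimates were above 0 and none passed, with a median of 0.11. Without sham replicate 1 the median was 0.06 and 6 of the 8 estimates were above 0. Ndufaf3 was the most abundant, at 9.90 ± 1.10 FPKM in IPF and 8.64 ± 1.44 FPKM in sham (SD, n = 5 each), and Impdh2 overlaps it on the opposite strand at a mean of 14.0 FPKM. Its estimate was 0.21, or 0.10 without sham replicate 1. Ndufaf8 had the largest estimate. Its level was 10.3, 11.4, 10.1, 9.41 and 9.83 FPKM in IPF replicates 1 to 5 and 5.16, 9.63, 7.92, 9.14 and 7.23 FPKM in sham replicates 1 to 5. The groups overlapped at IPF replicate 4 and sham replicate 2. Its log2 fold change was 0.41 with a standard error of 0.15 (adjusted p = 0.136, limma), and 0.27 without sham replicate 1 (adjusted p = 0.144).

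In complex II, Sdha, Sdhb, Sdhc and Sdhd encode succinate dehydrogenase, which also belongs to the tricarboxylic acid cycle. None of the 4 passed, and all 4 intervals lay within ±0.5. Sdha, the subunit that holds the flavin, was at 52.9, 55.7, 57.5, 53.7 and 55.2 FPKM in IPF replicates 1 to 5 and at 54.7, 52.1, 59.4, 52.5 and 53.2 FPKM in sham replicates 1 to 5. These samples interleaved, and the log2 fold change was 0.02 with a 95% interval from -0.10 to 0.13 (adjusted p = 0.897, limma). Sdhc, a membrane anchor, was at 21.7 FPKM in sham replicate 1 and at 27.2 to 28.9 FPKM in the other sham samples, beside 26.2 to 30.9 FPKM in IPF, and its estimate went from 0.11 to 0.03 without that sample.

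In complex III, none of the 8 nuclear subunits passed, and the median was 0.10, or -0.04 without sham replicate 1. Uqcrh, the hinge subunit near cytochrome c1, was at 58.0, 65.6, 63.5, 60.1 and 66.1 FPKM in IPF replicates 1 to 5 and at 32.5, 60.2, 57.2, 57.5 and 45.4 FPKM in sham replicates 1 to 5. Sham replicate 2 lay within the IPF range, sham replicates 3 and 4 just below it, and sham replicates 1 and 5 well below it. IPF exceeded sham by a log2 fold change of 0.34 with a standard error of 0.15 (adjusted p = 0.233, limma), and 0.19 without sham replicate 1 (adjusted p = 0.268). A processed pseudogene, Gm12854, overlaps Uqcrh on the opposite strand at a mean of 9.32 FPKM. Uqcrfs1, which encodes the Rieske iron-sulfur protein, was at 42.7 ± 3.09 FPKM in IPF and 41.9 ± 3.34 FPKM in sham (SD, n = 5 each), and its estimate was 0.03, or -0.02 without sham replicate 1. Uqcrb had the lowest estimate of this complex at -0.06 (adjusted p = 0.840, limma), or -0.15 without sham replicate 1.

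Complex IV, cytochrome c oxidase, has tissue isoforms of several nuclear subunits, so that its composition can differ between organs. Of the 17 nuclear members tested, none passed. An unadjusted p under 0.05 (limma) was reached by 2, Cox4i2 and Cox7a2l, beside 19.5% of all genes. The median was 0.18, or 0.05 without sham replicate 1. Cox6a1 and Cox8a, the common isoforms of their subunits, were the most abundant nuclear members of the chain per gene length. Cox6a1 was at 208 ± 7.43 FPKM in IPF and 212 ± 30.3 FPKM in sham, and Cox8a at 176 ± 8.25 and 162 ± 28.9 FPKM (SD, n = 5 each). Their estimates were -0.02 and 0.14, or -0.11 and 0.05 without sham replicate 1.

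Cox4i2 encodes the lung isoform of subunit 4, known for its part in oxygen sensing. Its level was 85.4, 96.5, 79.6, 81.0 and 92.2 FPKM in IPF replicates 1 to 5 and 59.1, 80.9, 79.5, 80.9 and 62.9 FPKM in sham replicates 1 to 5. The groups met near 80 FPKM, and the lowest values were those of sham replicates 1 and 5. On the log2 scale the difference was 0.27 with a standard error of 0.10 (adjusted p = 0.174, limma), and 0.20 without sham replicate 1 (adjusted p = 0.295). The 6 pericyte markers examined, since Cox4i2 and Ndufa4l2 are known from mural cells, summed to 96.0 to 119 FPKM in IPF and 97.7 to 111 FPKM in sham, and 1 of the 6 passed, as lower in IPF.

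Cox4i1, the common isoform of the same subunit, was at 115, 144, 139, 124 and 137 FPKM in IPF replicates 1 to 5 and at 72.1, 132, 128, 126 and 116 FPKM in sham replicates 1 to 5. Sham replicate 1 was far below all others, and the rest of the sham samples lay inside the IPF range. The log2 fold change moved from 0.23 (adjusted p = 0.459, limma) to 0.07 without that sample. Emc8 overlaps Cox4i1 on the opposite strand at a mean of 7.62 FPKM.

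Cox7a2l is known for a part in joining complexes III and IV into supercomplexes, which was not examined in these lungs. It was at 115, 131, 127, 125 and 161 FPKM in IPF replicates 1 to 5. In sham replicates 1 to 5 it was at 73.7, 116, 121, 111 and 108 FPKM. IPF replicate 5 was the highest and sham replicate 1 the lowest. Its log2 fold change was 0.33 with a standard error of 0.14 (adjusted p = 0.208, limma), and 0.20 without sham replicate 1 (adjusted p = 0.282). Its relatives in this isoform group were lower in level. Cox7a2 was at 50.5 to 61.1 FPKM in IPF and 28.9 to 62.9 FPKM in sham, with an estimate of 0.18, or -0.004 without sham replicate 1.

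The muscle isoforms Cox6a2 and Cox7a1 were detected in every lung and did not pass. Cox6a2 was at 12.6, 16.9, 10.8, 20.0 and 10.6 FPKM in IPF replicates 1 to 5 and at 7.67, 11.1, 13.9, 9.98 and 11.7 FPKM in sham replicates 1 to 5. Cox7a1 was at 1.76, 2.13, 1.48, 4.00 and 0.951 FPKM in IPF replicates 1 to 5. In sham replicates 1 to 5 it was at 1.13, 1.36, 1.63, 1.12 and 1.23 FPKM. The Cox7a1 values rest on 9 to 39 recovered reads per sample. The highest sample of each group was the same for both genes, IPF replicate 4 and sham replicate 3. Those were also the samples with the most transcript of 9 heart muscle genes. These summed to 171 FPKM in IPF replicate 4, 153 FPKM in sham replicate 3 and 18.1 to 56.2 FPKM in the other 8 samples. The order did not hold below the top: IPF replicate 3, next in IPF at 56.2 FPKM, exceeded only IPF replicate 5 in Cox6a2 and Cox7a1. Myl7, an atrial myosin light chain, was at 63.9 FPKM in IPF replicate 4 and 55.2 FPKM in sham replicate 3. Of 4 brown fat genes, whose sum was mostly Cox8b, the total was also the highest of its group in these samples, at 8.95 and 4.44 FPKM, beside 3.12 to 4.47 FPKM in the other IPF and 0.736 to 3.39 FPKM in the other sham samples. Ucp1, the uncoupling protein of brown fat, was at 2.21 FPKM in IPF replicate 4, 0.0761 FPKM in sham replicate 3 and at most 0.242 FPKM elsewhere. The 4 genes of the general fat list summed to 8.42 FPKM in IPF replicate 3, 0.789 FPKM in IPF replicate 4 and at most 0.383 FPKM elsewhere. The 5 skeletal muscle genes summed to at most 3.75 FPKM, with the highest values in IPF replicate 4 and sham replicate 4. None of the genes tested from these lists passed, and the part of heart, fat or muscle transcripts in the isoform levels was not tested. IPF exceeded sham by a log2 fold change of 0.36 for Cox6a2 (adjusted p = 0.352, limma) and 0.50 for Cox7a1 (adjusted p = 0.392). They were 0.24 and 0.46 without sham replicate 1. Without IPF replicate 4 both were 0.23 (adjusted p = 0.580 for Cox6a2 and 0.641 for Cox7a1, limma).

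**Figure D2:**
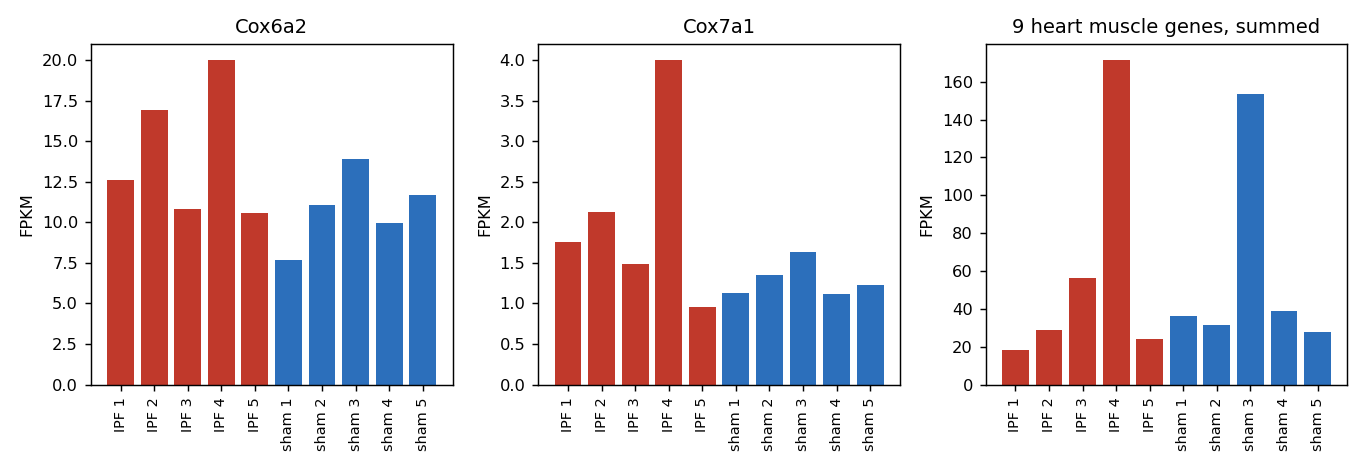
FPKM of Cox6a2, of Cox7a1 and of 9 heart muscle genes summed (y axes) in each of the 10 samples (x axes; red, IPF; blue, sham). In all 3 panels the highest bar of each group is IPF replicate 4 and sham replicate 3, at 171 and 153 FPKM for the heart muscle genes.

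The members of the remaining isoform groups did not pass either. Ndufa4 was at 46.6 ± 5.32 FPKM in IPF and 43.8 ± 8.44 FPKM in sham, and its hypoxia-inducible relative Ndufa4l2 at 44.1 ± 5.68 and 38.9 ± 4.48 FPKM (SD, n = 5 each), with log2 fold changes of 0.11 and 0.18. Without sham replicate 1 these were -0.03 and 0.15, so the direction for Ndufa4 depended on that library. Shmt2 overlaps Ndufa4l2 on the opposite strand at a mean of 7.75 FPKM. Cox6b1 was at 88.0 to 109 FPKM in IPF and 61.0 to 109 FPKM in sham, while Cox6b2, known as the testis isoform, was at 11.8 ± 1.71 and 11.0 ± 1.08 FPKM (SD, n = 5 each). The estimates of Cox6b1 and Cox6b2 were 0.09 and 0.10, or -0.06 and 0.11 without sham replicate 1. Cox7b was at 28.0 ± 2.96 FPKM in IPF and 28.0 ± 3.37 FPKM in sham, a log2 fold change of -0.001, or -0.07 without sham replicate 1.

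In complex V, none of the 17 tested nuclear members passed, and the median was 0.07, or -0.03 without sham replicate 1. Atp5a1 and Atp5b encode the alpha and beta subunits of the catalytic head. Atp5a1, the most abundant of this complex, was at 145 ± 9.36 FPKM in IPF and 149 ± 13.3 FPKM in sham (SD, n = 5 each), which put its log2 fold change at -0.04 with a 95% interval from -0.21 to 0.13, and at -0.10 without sham replicate 1. Atp5b was at 110 to 131 FPKM in IPF and 103 to 135 FPKM in sham, an estimate of -0.05 with a 95% interval from -0.23 to 0.13, or -0.12 without sham replicate 1. The genes Atp5g1, Atp5g2 and Atp5g3 encode the same mature subunit of the membrane ring. Atp5g3 was at 51.7 ± 3.30 FPKM in IPF and 50.1 ± 5.70 FPKM in sham, Atp5g2 at 36.8 ± 2.84 and 35.8 ± 6.72 FPKM, and Atp5g1 at 5.46 ± 0.483 and 6.04 ± 1.08 FPKM.

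The estimates of the ring genes were 0.05 for Atp5g3, 0.06 for Atp5g2 and -0.13 for Atp5g1 (limma, adjusted p between 0.633 and 0.846). Without sham replicate 1, Atp5g3 was at -0.02 and Atp5g2 at -0.05, so their direction depended on that library, and Atp5g1 was at -0.25 (adjusted p = 0.0905), since that sample, at 4.17 FPKM, was the only sham sample below the IPF range. The smallest unadjusted p of the complex was that of Atp5s, which encodes a coupling factor. It was at 2.33 to 3.83 FPKM in IPF and 2.22 to 3.05 FPKM in sham, a log2 fold change of 0.31 (adjusted p = 0.276, limma). That estimate was 0.26 without sham replicate 1.

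Sham replicate 1 was the low sample of every nuclear complex. To compare samples, each gene's log2(FPKM + 0.1) was taken as its deviation from the gene's mean over the 10 samples and averaged over a complex. For the 90 nuclear members this score was -0.49 in sham replicate 1 and -0.06 to 0.19 in the other 9 samples. By complex, sham replicate 1 was at -0.49 for complex I, -0.44 for its assembly factors, -0.37 for complex II, -0.59 for complex III, -0.49 for complex IV and -0.52 for complex V. It was the lowest of the 10 samples in 77 of 90 nuclear members, beside 20.7% of all genes, and in 0 of 13 mitochondrial members.

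Short transcripts as a whole were low in this library. Over all genes with a mean of at least 1 FPKM, the median deviation in sham replicate 1 was -0.19 for genes up to 1000 bases, -0.27 up to 2000, -0.11 up to 4000, 0.04 up to 8000 and 0.16 above 8000 bases, each bin starting where the last ended. The nuclear members were lower than that at each length, with means of -0.60 up to 1000 bases, -0.53 up to 2000, -0.43 up to 4000 and -0.30 above 4000 bases. The 74 genes of the cytosolic ribosome, another large set of short transcripts, were at -0.69. Sham replicate 1 also had 25486 genes above 0, beside 22475 to 23575 in the other samples, and the lowest sum of alveolar type 2 markers. The part of these traits and of transcript length in the nuclear scores was not tested.

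**Figure D3:**
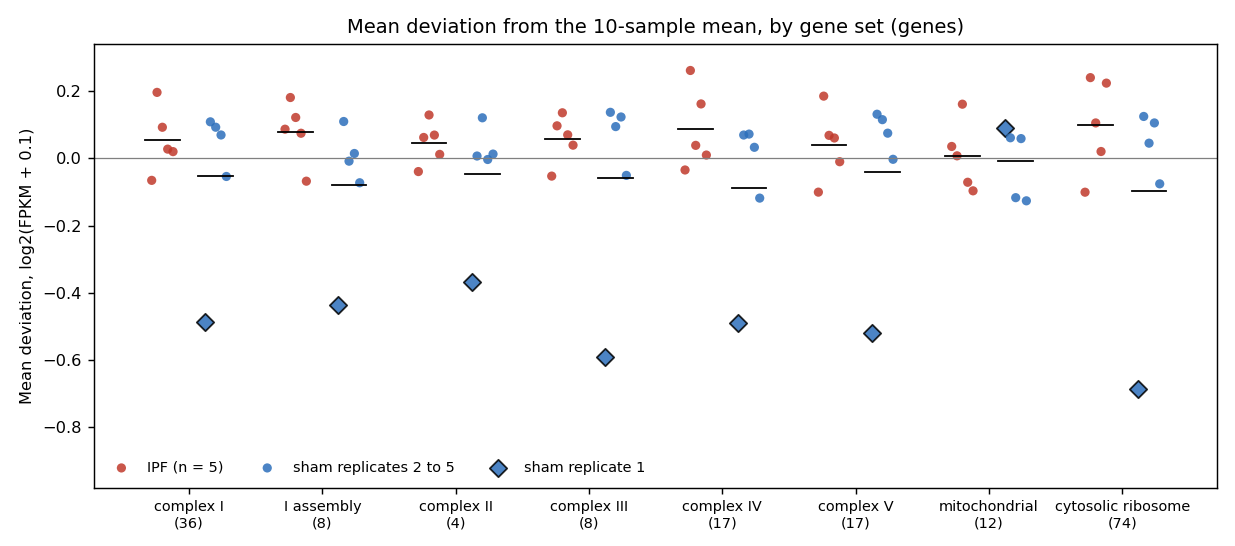
Mean deviation of log2(FPKM + 0.1) from the 10-sample mean (y axis) for the nuclear members of each complex, 12 mitochondrial members without mt-Atp8, and 74 genes of the cytosolic ribosome (x axis, number of genes in brackets). Each point is a sample and black lines are group means; sham replicate 1 (diamond) lies between -0.37 and -0.59 in the nuclear complexes and at 0.09 in the mitochondrial members.

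The mitochondrial members did not share this shift. Without mt-Atp8, the 12 mitochondrial members scored 0.09 in sham replicate 1 and -0.13 to 0.16 in the other samples. The mitochondrial minus the nuclear score was therefore 0.58 in sham replicate 1 and -0.20 to 0.09 in the other 9 samples. Between the groups, all members included, the difference of IPF minus sham in the mitochondrial minus the nuclear score was -0.03 with all samples and 0.10 without sham replicate 1, so its direction depended on that library. Without mt-Atp8 these values were -0.11 and 0.03.

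As a share of reads, the mitochondrial members took 1.79 ± 0.177% in IPF and 1.70 ± 0.126% in sham, and the nuclear members 0.552 ± 0.0319% and 0.526 ± 0.0730% (SD, n = 5 each). The sham shares without sham replicate 1 were 1.66 ± 0.109% and 0.557 ± 0.0243% (SD, n = 4), so for the nuclear members the direction depended on that library. Per gene length, the mitochondrial members made up 4.63 ± 0.249% of the summed FPKM in IPF and 4.38 ± 0.392% in sham, and the nuclear members 1.12 ± 0.0640% and 1.03 ± 0.129%. These sham values were 4.22 ± 0.144% and 1.09 ± 0.0340% without that sample. The highest mitochondrial share of summed FPKM, 5.05%, and the lowest nuclear share, 0.809%, were both those of sham replicate 1.

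**Figure D4:**
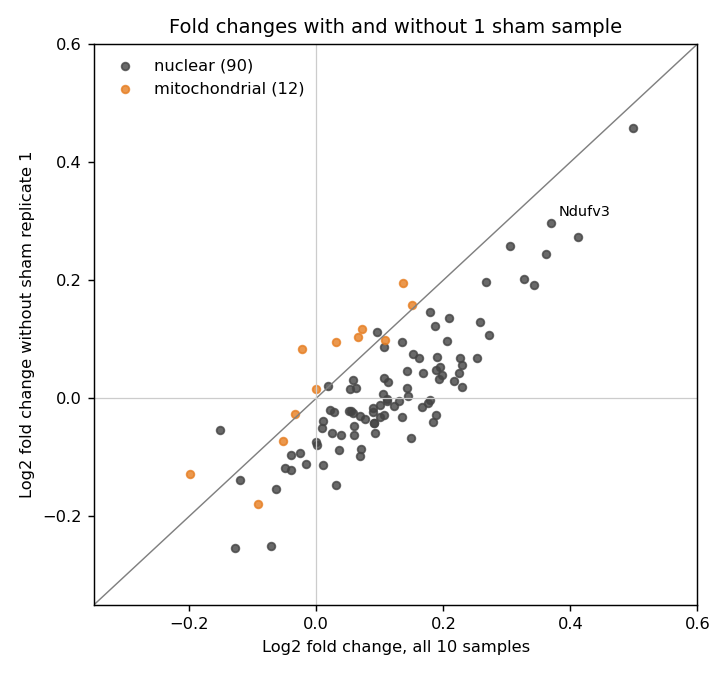
Log2 fold change of IPF against sham with all 10 samples (x axis) and without sham replicate 1 (y axis) for 90 nuclear members (grey) and 12 mitochondrial members (orange); the diagonal marks equal values. Most nuclear members fall below the diagonal and scatter around 0 on the y axis (median -0.01), while Ndufv3 stays at 0.30.

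The mitochondrial genes of the chain are transcribed as long precursors from both strands and cut at the transfer RNAs between them. None of the 13 passed limma's test and none reached an unadjusted p under 0.05, and limma voom on the recovered reads also called 0. Their levels fell into separate ranges: 7 genes lay between 491 and 5636 FPKM in every sample, and 6 between 0 and 68.4 FPKM. In the upper range were mt-Co1, mt-Cytb, mt-Nd1, mt-Nd2, mt-Nd4, mt-Nd5 and mt-Nd6. In the lower range were mt-Co2, mt-Co3, mt-Atp6, mt-Atp8, mt-Nd3 and mt-Nd4l.

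The same split was found in the sequence of the nuclear genome. The transcripts of the 13 genes were aligned to GRCm39. Matches on 1 of the autosomes and on sequence outside the assembled chromosomes were left out. All 6 genes of the lower range were identical over at least 99% of their length to a stretch of chromosome 1, minus strand, between 24650616 and 24655269, a nuclear copy of mitochondrial DNA, and none of the 7 genes of the upper range was. A read from such a gene has equal matches in both places, and how the authors' counting treated reads with several matches was not stated. The first bases of mt-Atp8 are shown with the copy at chr1:24653834-24653893, minus strand, because they do not differ.

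mt-Atp8: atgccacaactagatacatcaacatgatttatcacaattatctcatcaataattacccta
chromosome 1 copy: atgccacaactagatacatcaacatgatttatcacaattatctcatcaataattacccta

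For mt-Co1 the copy covers only the last 483 of 1545 bases, with 1 mismatch. That mismatch is shown in capitals in the stretch from base 1063 to 1122 of the transcript, with the copy at chr1:24655210-24655269 (GRCm39, minus strand).

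mt-Co1: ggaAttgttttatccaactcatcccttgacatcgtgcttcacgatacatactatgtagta
chromosome 1 copy: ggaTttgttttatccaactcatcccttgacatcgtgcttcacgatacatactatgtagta

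For mt-Cytb the best of the nuclear matches kept lies on chromosome 4 and is identical at 1062 of 1143 bases. Its first 60 bases, at chr4:79922227-79922286 (GRCm39, plus strand), differ from bases 2 to 61 of the transcript at the 3 bases in capitals.

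mt-Cytb: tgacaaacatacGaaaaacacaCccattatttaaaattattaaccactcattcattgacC
chromosome 4 match: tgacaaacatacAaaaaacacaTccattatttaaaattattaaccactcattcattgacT

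mt-Nd4 lay in the upper range although 876 of its 1378 bases are identical to the chromosome 1 copy. No match of mt-Nd1 was found on the nuclear chromosomes kept in the search. mt-Nd6, also of the upper range, matched chromosome 4 over its whole length, with 486 of 519 bases identical. The table also lists copies as genes of their own. Gm28661, the copy of mt-Co2, was at 36.3 to 56.8 FPKM beside 45.7 to 68.4 FPKM for mt-Co2, and Gm10925, the copy of mt-Atp6, at 40.1 to 56.8 FPKM beside 47.2 to 61.0 FPKM. Gm28438, the copy of mt-Nd3, was lower than its partner, at 6.51 to 18.6 FPKM beside 36.2 to 58.4 FPKM. When 5 copies were added to their partners, the log2 fold changes ran from -0.16 for mt-Nd4l to 0.12 for mt-Nd3, and none passed. The levels of the 6 genes of the lower range are therefore uncertain.

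**Figure D5:**
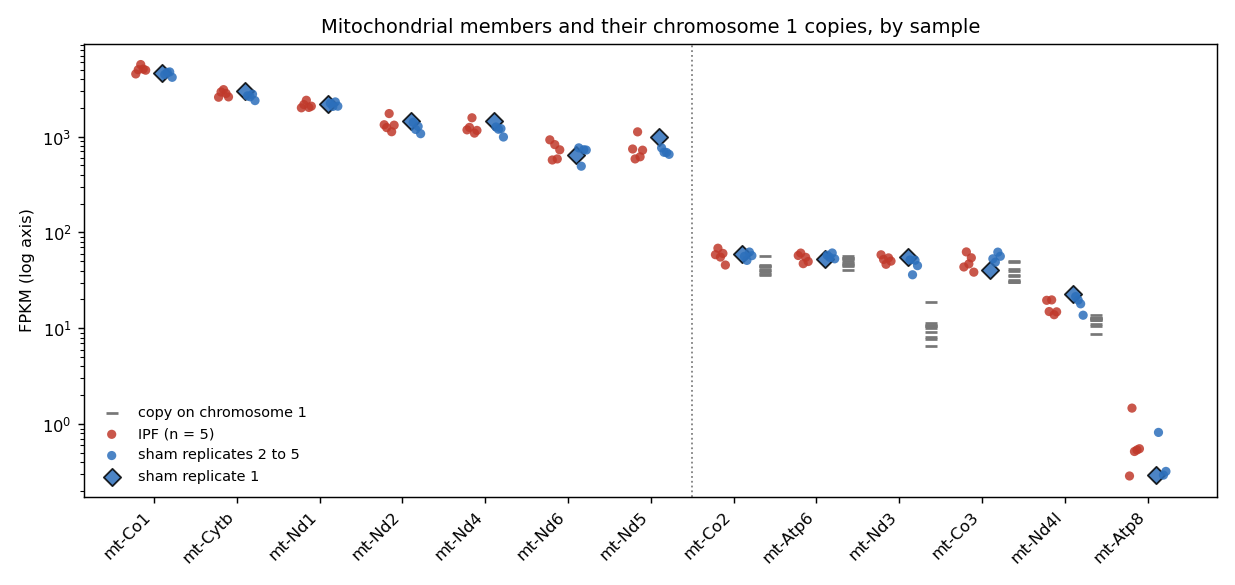
FPKM (log axis) of the 13 mitochondrial members in each sample (red, IPF; blue, sham; diamond, sham replicate 1), ordered by median; values of 0 are not drawn. Grey dashes are the chromosome 1 copies of 5 genes. The dotted line parts the 7 genes without an identical full-length copy on chromosome 1 (491 to 5636 FPKM) from the 6 with such a copy (0 to 68.4 FPKM).

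Among the 7 genes of the upper range, the log2 fold changes ran from -0.03 for mt-Nd1 to 0.15 for mt-Co1, with a median of 0.07, or 0.10 without sham replicate 1. mt-Co1, which encodes the catalytic subunit of complex IV, was at 4499, 4981, 5636, 5052 and 4921 FPKM in IPF replicates 1 to 5 and at 4593, 4437, 4670, 4721 and 4149 FPKM in sham replicates 1 to 5. All IPF samples but replicate 1 lay above all sham samples. Its log2 fold change was 0.15 with a 95% interval from -0.27 to 0.58 (adjusted p = 0.727, limma), and an exact two-sided permutation test of this single gene gave p = 0.0317 before any adjustment. Over the alternatives tried, this estimate ran from 0.07 with a correction for gene length to 0.84 with quantile normalization, which sets values by rank (adjusted p = 0.0969, limma).

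mt-Cytb, the mitochondrial subunit of complex III, was at 2572 to 3085 FPKM in IPF and 2371 to 2961 FPKM in sham, a log2 fold change of 0.07 (adjusted p = 0.862, limma), or 0.10 without sham replicate 1. The complex I genes overlapped throughout: mt-Nd1 was at 1994 to 2390 FPKM in IPF and 2062 to 2297 FPKM in sham, and mt-Nd2 at 1123 to 1737 and 1071 to 1437 FPKM. mt-Nd4 was at 1086 to 1569 and 989 to 1446 FPKM, and mt-Nd5 at 584 to 1119 and 652 to 998 FPKM. The estimates of mt-Nd2, mt-Nd4 and mt-Nd5 were 0.07, 0.03 and -0.02, or 0.12, 0.10 and 0.08 without sham replicate 1. IPF replicate 3 was the highest of the 10 samples in mt-Co1, mt-Cytb, mt-Nd1, mt-Nd2, mt-Nd4 and mt-Nd5. mt-Nd6, the only gene of the 13 on the minus strand, was at 570 to 924 FPKM in IPF and 491 to 762 FPKM in sham, and its highest sample was IPF replicate 1. It overlaps mt-Nd5 on the opposite strand.

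The genes of the lower range did not separate the groups. mt-Co2 was at 45.7 to 68.4 FPKM in IPF and 51.1 to 62.4 FPKM in sham, and mt-Co3 at 38.5 to 62.6 and 40.5 to 62.3 FPKM. The estimate of mt-Co3 was -0.09, or -0.18 without sham replicate 1. mt-Nd4l had the lowest estimate of all members at -0.20 (13.9 to 19.8 FPKM in IPF, 13.7 to 22.9 FPKM in sham; limma, adjusted p = 0.505), or -0.13 without sham replicate 1. mt-Atp8 held 1, 5, 2, 2 and 2 reads in IPF replicates 1 to 5 and 1, 3, 0, 1 and 1 reads in sham replicates 1 to 5, which is too few for a fold change.

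Ribosomal RNAs of the mitochondrial genome are not protein-coding and so not members, and their difference from the 13 genes was not tested. mt-Rnr2, the RNA of the large subunit, was at 263, 310, 291, 296 and 297 FPKM in IPF replicates 1 to 5 and at 200, 225, 178, 235 and 208 FPKM in sham replicates 1 to 5. Every IPF sample lay above every sham sample. On the log2 scale the difference was 0.48 with a standard error of 0.09 (adjusted p = 0.00825, limma), and 0.47 without sham replicate 1 (adjusted p = 0.0202). mt-Rnr1, of the small subunit, was at 269 ± 30.7 FPKM in IPF and 193 ± 24.7 FPKM in sham (SD, n = 5 each). Its estimate of 0.48 passed (adjusted p = 0.0244, limma) but missed the threshold without sham replicate 1 (0.46, adjusted p = 0.0572). How much of these RNAs the library selection let through is not given in the sources used here.

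The promoters of the nuclear members were searched for short motifs. RefSeq start sites (GRCm38.p6) were found for 75 of 92 nuclear symbols, giving 80 windows of 300 bases, from 250 before to 50 after the start. Exact letters of motifs known from genes of the respiratory chain were searched on both strands. The NRF1 motif, GCGCA and GCGC with any base between them, was in 25% of the member windows and in 4.60% of all 32851 windows, the ETS motif CCGGAAG in 22.5% and 8.86%, and the YY1 motif AAGATGGC in 13.8% and 2.75%. At least 1 of these was in 52.5% of the member windows and 14.7% of all windows, and in 0 member windows did different motifs overlap. A match describes these letters only and says nothing of binding in these lungs.

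The 120 bases before the start of Ndufv3 (chr17:31519995-31520114, plus strand), the member that passed the test, held no match. They are shown beside those of Sdha (chr13:74350241-74350360, minus strand) and Cox6a1 (chr5:115348959-115349078, minus strand), the most abundant members of complexes II and IV with an NRF1 match there. Capitals mark the matches, which are 3 of NRF1 in Sdha and 1 each of NRF1 and, on the opposite strand, ETS in Cox6a1.

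Ndufv3: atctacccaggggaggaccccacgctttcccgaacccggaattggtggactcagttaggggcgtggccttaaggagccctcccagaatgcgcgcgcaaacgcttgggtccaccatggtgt
Sdha: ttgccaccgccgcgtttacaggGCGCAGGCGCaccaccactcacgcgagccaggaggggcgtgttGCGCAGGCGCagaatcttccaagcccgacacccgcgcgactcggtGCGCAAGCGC
Cox6a1: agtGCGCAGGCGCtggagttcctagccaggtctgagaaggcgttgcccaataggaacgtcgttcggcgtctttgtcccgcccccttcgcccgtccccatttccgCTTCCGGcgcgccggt

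Genes that work with the chain outside the rule were examined in 7 lists of 204 genes, of which 201 were tested. Of these, 1 passed, or 0.498%, beside 5.85% of all genes. It was Coq10b, which encodes a protein that binds coenzyme Q, and it was lower in IPF, as were 2.14% of all genes. Its level was 8.12, 7.38, 6.35, 7.70 and 9.41 FPKM in IPF replicates 1 to 5 and 12.6, 12.2, 12.5, 14.3 and 11.9 FPKM in sham replicates 1 to 5. The groups did not overlap, as for 2.77% of all genes with IPF the lower group. The difference on the log2 scale was -0.70 with a standard error of 0.10 (adjusted p = 0.00229, limma), and -0.71 without sham replicate 1 (adjusted p = 0.00936).

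Among all 201 genes, 8 had groups that did not overlap (7.29% of all genes did not), 3 with IPF higher and 5 with IPF lower. The 77 tested genes of the mitochondrial ribosome had a median of 0.09, or 0.02 without sham replicate 1, in which their summed level was 573 FPKM against 766 to 896 FPKM in the other samples. Their lowest adjusted p was that of Mrps6, at 7.93 ± 1.78 FPKM in IPF and 4.75 ± 1.23 FPKM in sham (SD, n = 5 each). Its estimate was 0.74 (adjusted p = 0.0509 by limma), or 0.61 without sham replicate 1 (adjusted p = 0.109). The assembly factors outside the rule had a median of 0.08, or 0.01 without sham replicate 1, and 0 of 36 passed.

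Among 20 genes of mitochondrial biogenesis the median was 0.05, or 0.04 without sham replicate 1, and 0 passed. Tfam, which packages and helps to transcribe the mitochondrial genome, was at 7.06 to 8.09 FPKM in IPF and 6.32 to 6.97 FPKM in sham, so that its groups did not overlap, with a log2 fold change of 0.17 (adjusted p = 0.140, limma). Among 16 genes of mitochondrial RNA processing the median was 0.002, or -0.02 without sham replicate 1. The lowest adjusted p was that of Fastkd5, a factor for the maturation of mitochondrial mRNA (1.49 to 1.81 FPKM in IPF, 0.966 to 1.35 FPKM in sham). Its estimate was 0.41 (adjusted p = 0.0696, limma), or 0.34 without sham replicate 1 (adjusted p = 0.108). Without sham replicate 1 the following medians moved further below 0. The 18 electron carriers and inhibitors of the synthase, which include Coq10b, went from -0.05 to -0.10, the 17 genes of the tricarboxylic acid cycle from -0.03 to -0.11 and the 17 markers of mitochondrial mass from -0.01 to -0.04. None of the tricarboxylic acid cycle genes passed, while the groups of 4 did not overlap, 3 with IPF lower (2.77% of all genes) and 1 with IPF higher (4.52% of all genes). Cs (citrate synthase), Dlst and Pdhx were lower in every IPF sample than in every sham sample, with estimates of -0.10, -0.12 and -0.16, and Dld was higher, at 0.14 (adjusted p between 0.148 and 0.237, limma). Of the mass markers, Hspd1, a matrix chaperone, had the lowest adjusted p (estimate 0.33, adjusted p = 0.0995 by limma). That estimate was 0.30 without sham replicate 1 (adjusted p = 0.194, limma).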

How the data were processed

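Whole-lung RNA of 5 IPF and 5 sham samples was sequenced. The authors deposited FPKM values per gene. Their methods name Fastp, HISAT2 and GRCm39, whereas positions in the table follow GRCm38, with a final chromosome 1 gene ending at 195323493, and the processing notes list Bowtie 0.12.2. The library kit is named differently in the methods and the sample records, and strand use in counting is not given in the sources used here. FPKM multiplied by gene length gave reads that were whole within 0.02 for all values.

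Genes with a mean of at least 0.1 FPKM were tested as log2(FPKM + 0.1) with limma 3.58.1 (variance trend, 20448 genes, Benjamini-Hochberg adjustment) in R 4.3.3. Fold changes on this scale understate those of low genes. Transcripts were aligned with blastn 2.17.0. The fit was tested on simulated data. No 2 replicates were alike within sampling noise (chi-square per degree of freedom at least 4.49). Members and lists were chosen with earlier results of these data known. Named were all mitochondrial members, members that passed, isoform groups, and per complex the most abundant member and the smallest p in each direction, with up to 3 genes per list; Uqcrfs1, Atp5b, Cs, Pdhx, both mitochondrial rRNAs and the nuclear copies were added after their values were seen. Alternatives changed pseudocount, filter, scaling, weights, variance model and samples.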

Additional observations from a re-analysis of the deposited data

Results flagged for a closer look

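Within groups of 5, a sample was singled out where its gap to the nearest other sample exceeded Dixon's 95% critical value. This held for 13 of 98 groups of values, and chance gives about 1 in 20. Of the 13, 12 were the low value of sham replicate 1. These were Ndufv3 at 9.99 FPKM, Ndufc2 at 45.1, Sdhc at 21.7, Atp5g1 at 4.17, Cox4i1 at 72.1, Cox6b1 at 61.0 and Cox7a2l at 73.7 FPKM, and the mean log2 deviations of the nuclear members (-0.49) and of complexes I (-0.49), II (-0.37), III (-0.59) and V (-0.52). These values share a library and are not independent of each other. The remaining value was mt-Atp8 in IPF replicate 2 at 1.47 FPKM, which rests on 5 reads, beside 0.288 to 0.554 FPKM in the other IPF samples.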

How the results depend on the processing

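Ndufv3 stayed higher in IPF under 24 of 24 alternatives and passed under 23. With single samples left out, the members passing numbered 0 to 1, and without IPF replicate 2 the number was 0 (Ndufv3 log2 fold change 0.36, adjusted p = 0.0523). Of the companion genes, 1 passed in the main test and 1 to 3 with single samples left out: 3 without IPF replicate 5 and 2 without sham replicate 4. The count was 2 with a mean of at least 1 FPKM, with no variance trend, with array weights, with limma voom on the recovered reads and with a correction for gene length chosen after seeing the data. It was 3 among protein-coding genes alone. The added genes were Mrps6, Fastkd5 and Hspd1, and the cause was not tested. Replicate numbers are shared by both groups. The deviations of same-numbered samples correlated at -0.04 to 0.17 across genes, and 3 of 5 IPF samples correlated best with their own number. These values do not exclude a pairing by number, and the main test did not use one. With the replicate block, 1 member and 3 companion genes passed, and 1045 genes in all. Over all genes, 1196 passed in the main test, 1466 with voom on recovered reads, 908 with no filter, 1749 with array weights and 748 to 1619 with single samples left out. The nuclear median ran from -0.01 to 0.15, the mitochondrial median from -0.06 to 0.10 and their mean difference from -0.13 to 0.10 over the alternatives. mt-Atp8, Cox7b2 and Cox8c held at most 5 reads in a sample, and the cause was not tested.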
